A study of Rattus norvegicus with 8 samples.

Results

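The Homer genes, Homer1, Homer2 and Homer3, are described here across 8 libraries of newly made RNA from cultured rat neurons. The members were chosen by name: each is 1 of the 16871 gene symbols in the deposited count table, and all 3 passed the filter on low counts along with 11372 genes in all. The libraries are titled as hippocampal neuron cultures, while the growth protocol describes tissue of both cortex and hippocampus, taken from Sprague Dawley rat pups (P1-P2), and markers of glia were counted in them as well. Every culture was treated from day 14 in vitro for 24 h, washed for 48 h, and treated again on day 17 for 4 h. Bromouridine, a base analogue that living cells build into new RNA, was present at 2 mM for the last 30 min, and the labelled RNA was captured and sequenced (BrU-seq). Each treatment was vehicle (water, H) or 1 µM tetrodotoxin (TTX, T), which blocks voltage-gated sodium channels and so silences action potentials. The first letter of a group gives the first treatment and the second letter the second: the 4 groups, of 2 libraries each, are HH (vehicle both times), HT (TTX the second time only), TH (TTX the first time only) and TT (TTX both times). Whether the replicates are separate cultures or litters is not labelled, and the p-values below rest on a replicate spread that could be technical.

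Homer proteins are adaptors of the postsynaptic density at excitatory synapses. An amino-terminal EVH1 domain grips proline-rich stretches in group I metabotropic glutamate receptors, in inositol trisphosphate and ryanodine receptors of the calcium store, and in Shank scaffolds, while a carboxy-terminal coiled coil joins long Homer proteins to each other. Homer1 also makes a short form, Homer1a, which neuronal firing induces and which lacks the coiled coil, so that it uncouples these partners; Homer2 and Homer3 are best known as long, constitutive forms, and Homer3 is best known from cerebellar Purkinje cells. The counts are per gene and do not separate Homer1a from the long forms of Homer1.

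The bases just before the RefSeq start of Homer1 are shown because Homer1 is the member known as an activity-regulated gene. The stretch is chr2:26278762-26279011 of the GRCr8 build, on the plus strand, 250 bases 5′ to 3′. Capitals mark its only match to the motifs searched, a TATA box (TATAAA) read on the opposite strand, positions -223 to -218 from the start.
Homer1: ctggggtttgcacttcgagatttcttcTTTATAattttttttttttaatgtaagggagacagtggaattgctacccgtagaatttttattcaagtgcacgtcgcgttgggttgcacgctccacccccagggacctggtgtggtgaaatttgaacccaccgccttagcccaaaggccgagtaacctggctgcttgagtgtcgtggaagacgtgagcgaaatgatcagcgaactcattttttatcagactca
Both strands were searched for the CRE (TGACGTCA), the CRE half-site (TGACG, which the CRE contains), AP-1 (TGANTCA), EGR (GCGTGGGCG), the E-box CACGTG, the TATA box, the MEF2 motif and the CArG box of serum response factor. Of the 33469 RefSeq windows of the same length, 1.59% held a CRE, 18.2% a CRE half-site, 6.34% an AP-1 motif and 12.9% a TATA box. EGR was in 0.478%, the E-box in 5.59%, MEF2 in 2.96% and the CArG box in 1.50%. The Homer3 window held none of the 8 motifs. A match or its absence describes these letters in this window only. Homer2 had no entry.

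Before the members are described, 1 library has to be set apart. HH replicate 1, given vehicle at both times, held the highest value of 21.6% of the tested genes, and within the HH group 546 genes differed over 2-fold between the replicates, against 281, 180 and 155 in HT, TH and TT. It held the highest value of 17 of 18 tested rapid activity-regulated genes (Fos, Egr and Nr4a factors among them) and of 13 of 17 later ones. Total counts ran from 3489176 to 4959887, and that of HH replicate 1, 3603852, lay inside this range. Markers of all neurons summed to 5835 CPM (counts scaled to a common library size by TMM, the trimmed mean of M values) in HH replicate 1 and to 3649 to 4507 in the other libraries. The rapid genes summed to 958 CPM in HH replicate 1 but to 246 in HH replicate 2, the lowest of all libraries. They summed to 287 to 373 in HT, 247 to 283 in TH and 254 to 256 in TT. The later genes summed to 826 and 543 CPM in HH (replicate 1 first), 401 to 481 in HT, 332 to 552 in TH and 324 to 401 in TT. Which HH library is typical of cultures never silenced cannot be told from 2 libraries. Comparisons of the members that use HH are therefore also given without HH replicate 1. Changes of single partner genes are given with all libraries only.

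Homer1 was highest in HH replicate 1 and ran from 276 to 407 CPM in the other 7 libraries. It stood at 787 CPM in HH replicate 1 and at 297 in HH replicate 2, at 407 and 323 in HT, at 276 and 350 in TH, and at 329 and 315 in TT (replicate 1 first). HH replicate 1 was thus 1.93 times the next library and 2.43 times the median of the other 7, which spanned 1.47-fold. The other HH library was the second lowest of all 8. Counts for Homer1 ran from 999 to 2552 reads, so its exact Poisson 95% interval in HH replicate 1 was 757 to 818 CPM, against 280 to 314 in HH replicate 2. These intervals cover counting error only. The gap between the HH replicates, 1.41 on the log2 scale, was exceeded by 1.71% of tested genes. By mean, the order was HH (542 ± 347 CPM, SD, n = 2), HT (365 ± 59.1), TT (322 ± 9.90) and TH (313 ± 52.1), and every neighbouring pair in this order overlapped.

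Homer2 shared the high value in HH replicate 1, and its other libraries spanned a wider range than those of Homer1, on 136 to 350 reads a library. It stood at 108 CPM in HH replicate 1 and 58.4 in HH replicate 2, at 66.7 and 38.2 in HT, at 57.5 and 51.6 in TH, and at 42.4 and 55.0 in TT. HH replicate 1 was 1.62 times the next library, HT replicate 1, and the 7 others spanned 1.75-fold. Both HH libraries lay above both TH libraries, by 58.4 against 57.5 CPM at the nearest, a gap inside the counting error (Poisson 95% intervals of 51.0 to 66.6 and 49.9 to 65.8). All pairs of libraries lower in TH than in HH were seen in 13.4% of tested genes. HT overlapped HH, and both TT libraries lay below both HH libraries, as in 19.3% of tested genes. The means were 83.2 ± 35.0 in HH, 54.5 ± 4.14 in TH, 52.5 ± 20.2 in HT and 48.7 ± 8.92 CPM in TT (SD, n = 2), the last 3 overlapping as neighbours.

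Homer3 was lowest of the 8 in both HH libraries, the reverse of Homer1 in HH replicate 1 but not in HH replicate 2. It stood at 3.08 and 4.17 CPM in HH, 10.3 and 5.61 in HT, 8.84 and 6.48 in TH, and 7.23 and 8.96 in TT. The HH libraries did not overlap any other library, a pattern in this direction that 6.58% of all tested genes shared. The other groups overlapped one another, with means of 8.09 ± 1.23 in TT, 7.98 ± 3.35 in HT and 7.66 ± 1.67 in TH against 3.63 ± 0.770 CPM in HH (SD, n = 2). Homer3 was a thinly counted gene, with 10 to 45 reads a library. The 10 reads of HH replicate 1 have a Poisson 95% interval of 1.48 to 5.67 CPM, the 16 reads of HH replicate 2 one of 2.39 to 6.78, and the 20 reads of HT replicate 2 one of 3.43 to 8.67. The nearest libraries on either side thus cannot be told apart by counting alone.

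**Figure D1:**
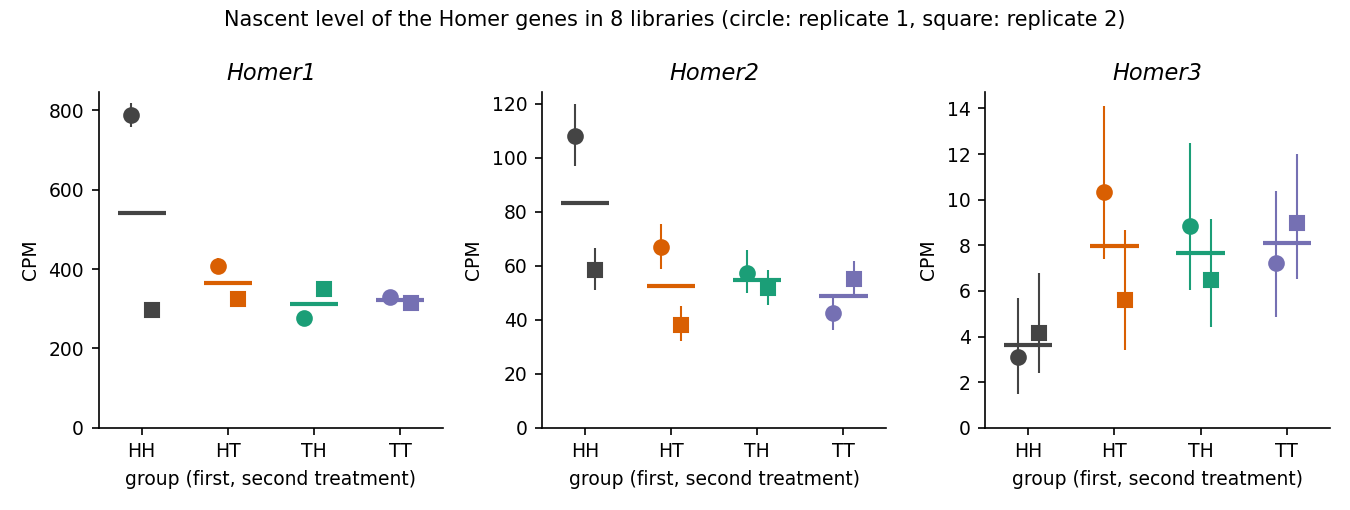
Level of each Homer gene in CPM, with 1 panel per gene, by group on the x axis; circles are replicate 1, squares replicate 2, thick bars the mean of 2 libraries and thin vertical lines the exact Poisson 95% interval of the count. Homer1 and Homer2 have a single high library, HH replicate 1 (787 and 108 CPM), while Homer3 is lowest in both HH libraries (3.08 and 4.17 CPM).

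Across libraries the members spread more than most genes. The SD of log2 CPM over the 8 libraries was 0.48 for Homer1, 0.45 for Homer2 and 0.55 for Homer3, above 93.9%, 92.5% and 96.4% of tested genes, whose median was 0.20. These SDs include HH replicate 1, and the 7 other libraries spanned 1.47-fold for Homer1 and 1.75-fold for Homer2. The ranking takes no account of depth, and Homer3 had only 10 to 45 reads a library. Homer1 and Homer2 varied together over the 8 libraries (Pearson r = 0.81) but hardly over the 7 without HH replicate 1 (r = 0.18). Homer3 ran against Homer1 with all 8 (r = -0.57) and with it without that library (r = 0.37). These coefficients describe libraries that share treatments and scaling and are given with no test.

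Genes induced by firing set the scale for Homer1. Fos, an AP-1 transcription factor, stood at 37.0 CPM in HH replicate 1 and between 5.74 and 11.6 elsewhere, and Npas4, a neuron-specific activity factor, at 53.0 against 1.97 to 9.57. Arc, which drives AMPA receptor endocytosis, stood at 41.6 against 3.64 to 9.31, Bdnf, a secreted neurotrophin, at 122 against 10.9 to 35.96, and Nptx2, a secreted pentraxin that gathers AMPA receptors, at 27.8 against 13.0 to 19.8. The r of Homer1 with them over 8 libraries was 0.90 for Fos, 0.94 for Npas4, 0.85 for Arc, 0.89 for Bdnf and 0.69 for Nptx2. Without HH replicate 1 it was 0.35, 0.58, -0.036, 0.37 and -0.085. For Homer2 the values were 0.81, 0.93, 0.87, 0.90 and 0.84 with all 8 libraries, and 0.26, 0.78, 0.51, 0.64 and 0.58 over 7. In the 7 libraries Homer2 thus had the higher coefficient than Homer1 for 4 of these 5 genes, all but Fos, on 7 points and with no test. For Homer3 the values, in the same order, were -0.36, -0.49, -0.57, -0.49 and -0.50 over 8 libraries. Over the 7 they were 0.89, 0.53, 0.23, 0.37 and 0.072, so that the high value was for Fos alone.

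**Figure D2:**
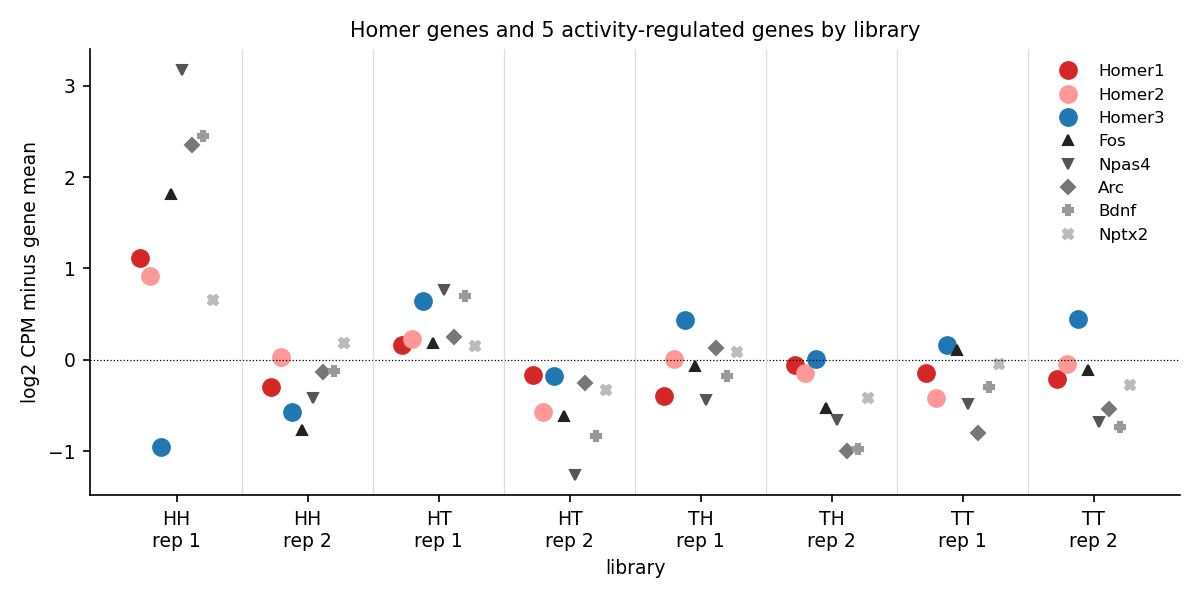
Log2 CPM minus each gene's own mean over the 8 libraries (y axis), by library (x axis), for the Homer genes (large circles) and 5 activity-regulated genes (small markers). In HH replicate 1 Homer1 is 1.11 and Homer2 0.92 above their means and Homer3 0.95 below (-0.95), and the 5 activity-regulated genes are all above theirs.

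The genes most like each member, by the highest r of log2 CPM over 8 libraries, differed between members. For Homer1 they were Ralgapa1, Erc1, Unc5c, Thsd7a, Rbm12, Tmem65, Fer and Psmb7, with r = 0.98 for each. Of these 8, Unc5c, a netrin receptor gene, had the highest r without HH replicate 1 (0.97), ranking 11 among the 11003 genes compared. It stood at 961 CPM in that library and at 420 to 648 elsewhere. Erc1, an active zone scaffold gene, had r = 0.89 without that library. For Homer2 they were Alk, Tbc1d9, Pex5, Hcrtr2, Mtch2, Kcnc2, Dusp4 and Dusp5 (r from 0.97 to 0.98). Dusp4 and Dusp5 encode phosphatases of MAP kinases. Dusp5 stood at 35.5 CPM in HH replicate 1, 12.2 in HT replicate 1 and 4.49 to 10.4 in the other 6, and kept r = 0.89 with Homer2 without HH replicate 1. For Homer3 they were Tmem8a, Irak4, Pyroxd1, Ccdc61, Mcoln1, Tab1, Commd9 and Fam96a (r from 0.94 to 0.96). Of these 24 genes, only Fam96a was among the 8 most alike without HH replicate 1, for Homer3 (r = 0.96).

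HT against HH shows the members 4 h into a first silencing. Homer1 stood at a log2 change of -0.57 ± 0.41 (SE, 95% interval -1.56 to 0.42) and Homer2 at -0.65 ± 0.34 (-1.46 to 0.15), neither past the threshold (edgeR quasi-likelihood test, adjusted p = 0.857 and 0.822). Homer3 stood at 1.13 ± 0.39 (0.27 to 1.98), a 2.18-fold higher level, with both HT libraries above both HH libraries, an arrangement found in 18.6% of tested genes. Its adjusted p was 0.707 and its unadjusted p 0.0143 (edgeR), the 229th smallest of 11372. In edgeR, 0% of the 11372 genes passed in this comparison, and 738 had an unadjusted p under 0.05. Fewer cells of a type and less new RNA per cell cannot be told apart in these bulk cultures. Without HH replicate 1 Homer1 turned to 0.30 (edgeR adjusted p = 0.873), Homer2 stood at -0.15 (0.959) and Homer3 at 0.94 (0.859). Without HH replicate 2, so that HH replicate 1 alone stood for HH and was assumed to vary like the other groups, Homer1 passed at -1.11 (edgeR adjusted p = 0.0246). The direction of Homer1 in this comparison thus rested on HH replicate 1, and Homer3 stood above 0 with either HH library.

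In cultures silenced before (TT against TH), no member stood far from 0, and the background was 0% called. Homer1 stood at 0.041 ± 0.41 (95% interval -0.95 to 1.03), Homer2 at -0.16 ± 0.34 (-0.96 to 0.65) and Homer3 at 0.11 ± 0.33 (-0.61 to 0.83), all with an adjusted p of 1.00 (edgeR). These intervals still allow a 2-fold difference for Homer1 in the higher direction. TT and TH libraries overlapped for each member. Neither group holds HH replicate 1, which here enters only through the scaling, the filter and the shared estimate of spread.

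Any lasting effect of the first TTX was read from TH against HH, after 48 h of washout and 4 h of vehicle. Again 0% of genes were called. Homer1 stood at -0.79 ± 0.42 (-1.78 to 0.20; edgeR adjusted p = 0.891) and Homer2 at -0.60 ± 0.34 (-1.40 to 0.19; 0.891). Homer3 stood at 1.04 ± 0.39 (0.19 to 1.89; adjusted p = 0.891, unadjusted p = 0.0210, edgeR), or 2.05-fold, with both TH libraries above both HH libraries as in 16.7% of tested genes. Leaving out HH replicate 1 gave 0.081, -0.10 and 0.85 (edgeR adjusted p = 1.00 for each). Without HH replicate 2 Homer1 passed at -1.33 (edgeR adjusted p = 0.00674), with HH replicate 1 as the lone control. HT and TH share the HH controls, so that the values of the HT and TH comparisons are not independent.

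Under the second TTX, the members stood close to 0 by history, with wide intervals (TT against HT, 0% called). Homer1 stood at -0.18 ± 0.41 (-1.17 to 0.81), Homer2 at -0.11 ± 0.35 (-0.92 to 0.71) and Homer3 at 0.019 ± 0.33 (-0.71 to 0.74), with an edgeR adjusted p of 1.00 for each. Leaving out 1 library at a time moved Homer1 between -0.34 and -0.0059. The interaction, which asks whether the TTX effect differed with history, was 0.61 ± 0.59 for Homer1 (-0.79 to 2.01), 0.50 ± 0.49 for Homer2 (-0.64 to 1.64) and -1.02 ± 0.51 for Homer3 (-2.14 to 0.10), with 0% of genes called and an edgeR adjusted p of 1.00 for each. With HH replicate 1 left out these were -0.27, -0.014 and -0.84. Whether any member responded to TTX differently after a first silencing was therefore not shown.

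**Figure D3:**
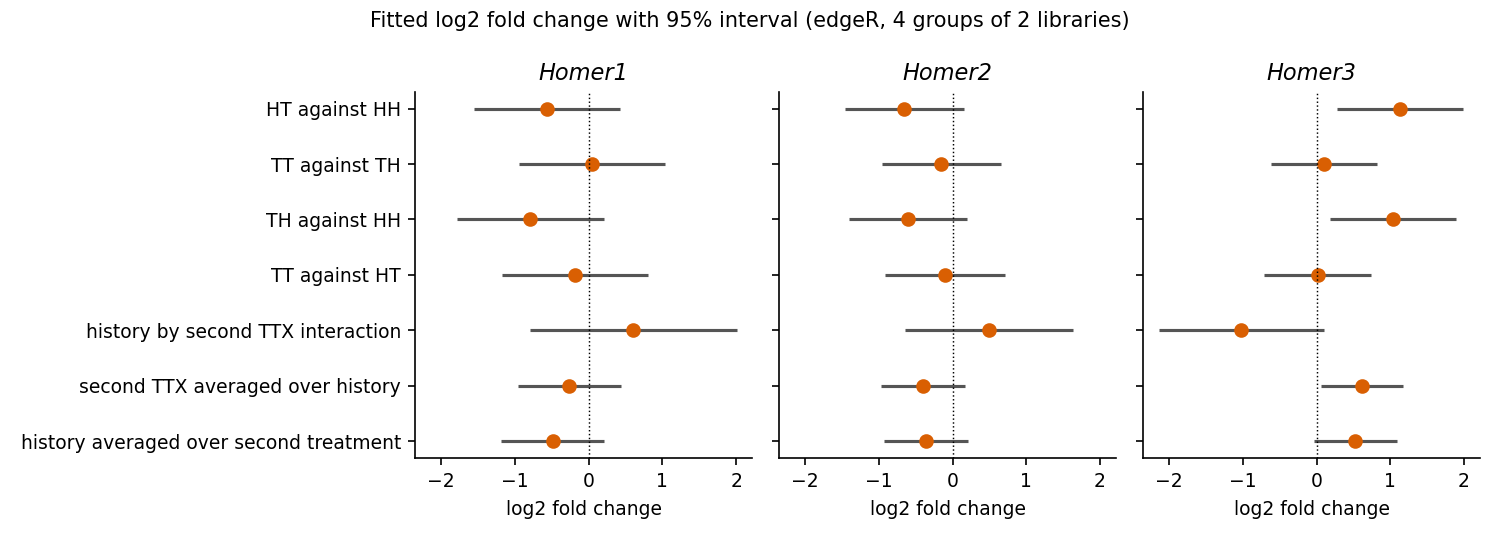
Log2 fold change (x axis) of each Homer gene in the 7 comparisons (y axis), with 1 panel per gene; points are edgeR estimates and lines their 95% intervals, n = 2 libraries per group. Homer1 and Homer2 intervals all hold 0; those of Homer3 lie above 0 for HT against HH, TH against HH and the second TTX averaged over history, without adjustment for the genes tested.

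Averaged over history, the second TTX stood at -0.26 ± 0.29 for Homer1 (-0.96 to 0.44), -0.40 ± 0.24 for Homer2 (-0.97 to 0.17) and 0.62 ± 0.26 for Homer3 (0.057 to 1.18). Their adjusted p was 0.909, 0.802 and 0.655 (edgeR), with 0% of genes called. By library, Homer1 ran from 315 to 407 CPM in the 4 libraries with the second TTX and from 276 to 787 in the 4 with vehicle, so the first lay wholly inside the second. Without HH replicate 1 Homer1 turned to 0.17, Homer2 stood at -0.15 and Homer3 at 0.52 (edgeR adjusted p = 0.750, 0.862 and 0.675). Averaged over the second treatment, history stood at -0.49 ± 0.29 for Homer1, -0.36 ± 0.24 for Homer2 and 0.53 ± 0.26 for Homer3 (edgeR adjusted p = 0.815, 0.835 and 0.814; 0% called). Without HH replicate 1 these were -0.054, -0.11 and 0.43, and without HH replicate 2 Homer1 passed at -0.76 (edgeR adjusted p = 0.0228). In all, 0 of the 21 tests of the members passed in edgeR, 3 had an unadjusted p under 0.05, each of them Homer3, and DESeq2 and limma-voom also called 0.

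Whether Homer1 moved apart from its paralogs was tested on log2 ratios of CPM within each library, which need no gene length. The ratio of Homer1 to Homer2 ran from 2.25 to 3.07 on the log2 scale, with HH replicate 1 inside that range at 2.86. It differed by 0.23 between the second TTX and vehicle (2.78 ± 0.27 against 2.55 ± 0.30, SD, n = 4 each; two-sided exact permutation p = 0.314, adjusted p = 0.411 over 6 ratio tests) and by -0.10 between histories (exact permutation p = 0.657). These differences were 0.33 and -0.053 without HH replicate 1. The ratio of Homer1 to Homer3 was 7.78 and 5.99 in HH and between 4.89 and 5.73 in the other 6 libraries, so both HH libraries were highest. It differed by -0.72 with the second TTX (5.36 ± 0.29 against 6.08 ± 1.23, n = 4; exact permutation p = 0.343, adjusted 0.411), or by -0.15 without HH replicate 1, and by -0.93 with history (5.25 ± 0.34 against 6.18 ± 1.11, n = 4; exact permutation p = 0.114, adjusted 0.343), or by -0.40 without that library.

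The ratio of Homer2 to Homer3 was likewise highest in both HH libraries, at 4.92 and 3.66 against 2.47 to 2.90 elsewhere. It stood between 2.47 and 2.66 in the 4 libraries given the second TTX, a narrow band (2.58 ± 0.085), and at 3.53 ± 1.02 in the 4 given vehicle (n = 4 each), a difference of -0.95 (exact permutation p = 0.0571, adjusted 0.343). It was -0.48 without HH replicate 1. With history it differed by -0.83 (exact permutation p = 0.200, adjusted 0.400), and by -0.34 without HH replicate 1. The smallest p that 70 assignments of 8 libraries can give is 0.0286, and they do not hold the other treatment fixed. After adjustment over 6 tests a single ratio could reach no less than 0.171, so that no ratio could have passed alone. Where 1 library was left out, the Homer1 to Homer3 ratio reached an exact permutation p of 0.0286 for history without HT replicate 1 (-1.25), and the Homer2 to Homer3 ratio for the second TTX without TH replicate 1 (-1.25). That is the smallest p the test can give with 1 library left out, and it is unadjusted. Each of the 6 tests was repeated without each library, and these cases left out a library that lay inside the range of the other arm. No conclusion is drawn from them.

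**Figure D4:**
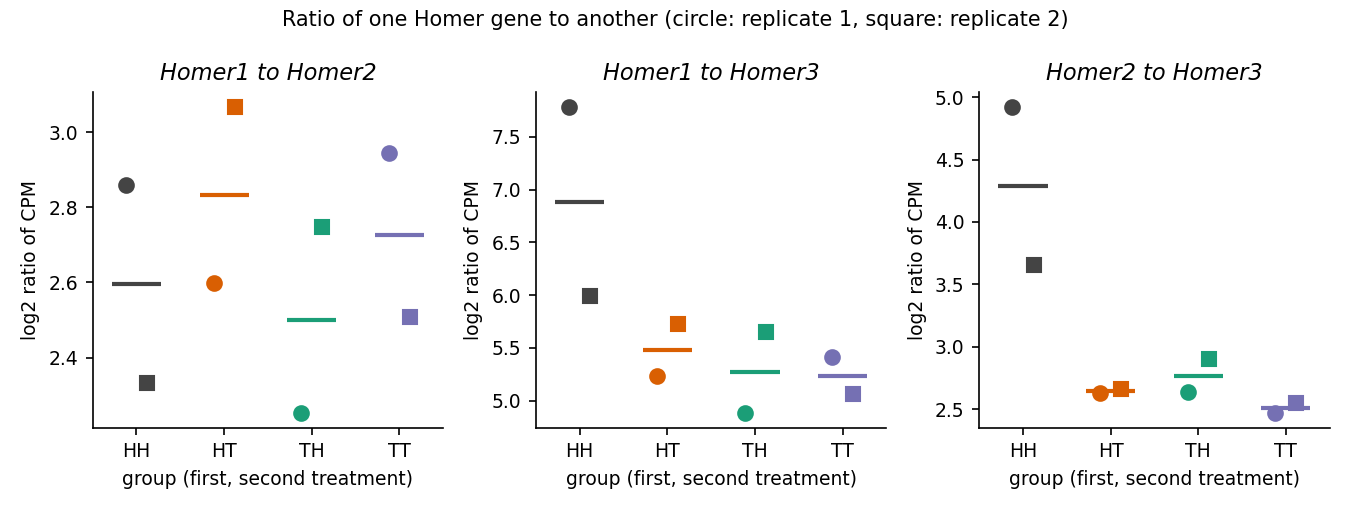
Log2 ratio of CPM of one Homer gene to another (y axis) by group (x axis), with 1 panel per pair; circles are replicate 1, squares replicate 2 and bars the mean of 2 libraries, and the y axes do not start at 0. Both HH libraries are above all others in the 2 ratios to Homer3, and the groups overlap in the ratio of Homer1 to Homer2.

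Some marker lists of other cells were also low in the HH libraries, where Homer3 was lowest. A gene lowest in both HH libraries was found in 6.58% of all tested genes. Of 11 tested oligodendrocyte lineage markers, 7 were lowest in both HH libraries, as Homer3 was; the 13 markers in the table summed to 514 and 610 CPM in HH, 730 to 787 in HT, 651 to 700 in TH and 735 to 909 in TT, with Mag at 0 in at least 1 library. Of 8 proliferation markers, 5 were lowest in both HH libraries; they summed to 120 to 125 CPM in HH, 170 to 217 in HT, 127 to 143 in TH and 188 to 191 in TT, with none at 0. Of 8 astrocyte markers 3 were, with sums of 1331 to 1732, 1581 to 2007, 1409 to 1587 and 1735 to 1785 CPM in the same order, so that HH overlapped the other groups. Only 3 of 8 microglial and 3 of 6 endothelial markers were tested, too few to set against the other lists. Of these, 0 were lowest in both HH libraries. Inhibitory neuron markers went the other way by sum, with 864 to 1096 CPM in HH, 637 to 680 in HT, 680 to 850 in TH and 570 to 660 in TT. None was at 0, and both HH libraries had the highest sums. By the median marker TH replicate 1 was highest, at 0.21 above the gene mean on the log2 scale, against 0.15 and 0.20 in HH. Each HH library was the highest for 2 of the 8 inhibitory markers. Excitatory neuron markers overlapped between HH (956 to 1098 CPM) and HT (1063 to 1090). The part of these lists in the Homer2, Homer3 and ratio results was not tested. Microglial markers were near 0, summing to 10.9 to 17.1 CPM over 8 genes. The labelled cell type was present: markers of all neurons, such as Map2 and Snap25, were counted in every library.

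Genes for the proteins that Homer holds together were described by role from a list of 33 partner genes, of which 31 were in the table (tamalin under its older symbol, Grasp) and 30 were tested. None was called in any comparison (edgeR), and 1 to 3 had an unadjusted p under 0.05 in each comparison other than the interaction, which had 0. Of all 11372 tested genes, 267 to 789 had such a p in those comparisons and 186 in the interaction. For HT against HH 9 lay above 0 and 21 below, with a median of -0.12 against 0.00071 over all genes. For TT against TH the counts were 9 and 21 (median -0.060, all genes 0.0040), for TH against HH 7 and 23 (-0.12, all genes 0.0011) and for TT against HT 9 and 21 (-0.12, all genes 0.00040). Partner genes thus lay mostly below 0 in each of these comparisons by a small amount, while 49.1% to 49.9% of all tested genes lay below 0. These comparisons share groups and are not independent of one another. HH replicate 1 was the highest library for 14 of the 30. Leaving it out moved the median to -0.030 for HT against HH and to -0.065 for TH against HH. With all libraries, medians over 6 markers of all neurons were -0.21, -0.13, -0.22 and -0.18 in the same order of comparisons. Those of excitatory markers were 0.11, -0.13, 0.086 and -0.24, and those of inhibitory markers -0.16, -0.24, -0.26 and -0.15. Whether the direction was particular to partner genes was not tested.

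Grm5, a group I metabotropic glutamate receptor, stood at 1722 and 1677 CPM in HH, 1372 and 1576 in HT, 1334 and 1786 in TH, and 1651 and 1426 in TT, with overlap between HH and TH. Its change with the second TTX averaged over history was -0.11 ± 0.13 (edgeR adjusted p = 0.909). Grm5 lacked the high value in HH replicate 1 that Homer1 and Homer2 had. The calcium channels went in different directions. Itpr2, an inositol trisphosphate receptor, stood at 219 and 222 CPM in HH, 289 and 278 in HT, 245 and 254 in TH, and 306 and 385 in TT, so that all 4 libraries with the second TTX lay above the 4 with vehicle, as in 2.69% of tested genes. Its averaged change, 0.42 ± 0.096, had the smallest p of the partner genes (unadjusted p = 0.00109, adjusted p = 0.270, edgeR) and did not pass. Oligodendrocyte lineage markers also summed higher under the second TTX (730 to 909 CPM) than under vehicle (514 to 700 CPM). Sums of astrocyte markers overlapped between these arms. How far Itpr2 followed glial cells was not tested.

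Ryr2, a ryanodine receptor of the endoplasmic reticulum, stood at -0.31 ± 0.12 in the same average (edgeR adjusted p = 0.628), with 779 to 1039 CPM under the second TTX and 1052 to 1275 under vehicle, a separation in this direction found in 1.64% of tested genes. Itpr1, another inositol trisphosphate receptor (-0.24 ± 0.097), and the cation channel gene Trpc4 (-0.45 ± 0.18) stood below 0 for history averaged over the second treatment (edgeR adjusted p = 0.814 for each). Trpc4 shared the high HH replicate 1 of Homer1, at 163 CPM there and 71.0 to 112 elsewhere, whereas Itpr1 did not stand apart in it (223 CPM, against 160 to 202).

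Among the postsynaptic scaffolds, all 10 lay below 0 with history, by a median of -0.12, and 0 were called, while 50.0% of all tested genes lay below 0 with a median of 2.18e-05. HH replicate 1 was the highest library for 5 of the 10, and leaving it out gave 9 of 10 below 0 and a median of -0.14. With all libraries, 5 of 6 markers of all neurons also lay below 0 with history (median -0.15). So did 6 of 7 excitatory markers (-0.036) and 6 of 8 inhibitory markers (-0.18). Shank3, which links Homer to the receptor complexes of the synapse, stood at 151 and 171 CPM in HH, 203 and 176 in HT, 176 and 168 in TH, and 157 and 152 in TT. Its change for TT against HT was -0.29 ± 0.13, with both TT libraries below both HT libraries, as in 16.2% of tested genes (edgeR adjusted p = 1.00). Frmpd4, a scaffold that binds PSD-95 and Homer, stood at -0.46 ± 0.20 for HT against HH (edgeR adjusted p = 0.754), with 208 and 149 CPM in HH against 143 and 116 in HT, a separation found in 16.7% of tested genes. Grasp, which tethers metabotropic receptors, stood at 25.0 CPM in HH replicate 1 and between 7.08 and 15.0 in the others. Dlgap1, a scaffold that joins Shank to PSD-95, stood at 2123 CPM in that library and 1261 to 1531 elsewhere. Both were thus highest in the library where Homer1 was, and for TH against HH they stood at -0.96 ± 0.41 and -0.39 ± 0.19 (edgeR adjusted p = 0.891 for each).

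The 10 signalling and endocytosis partners showed no shared direction with history, with 4 above and 6 below 0. Dnm3, a dynamin gene whose protein ties Homer to endocytic zones, stood at 0.29 ± 0.16 for TT against TH (edgeR adjusted p = 1.00), with 617 and 736 CPM in TT against 489 and 615 in TH. Agap2, which couples Homer to phosphoinositide 3-kinase, stood at -0.25 ± 0.14 and Plcb4, a phospholipase C downstream of group I receptors, at 0.29 ± 0.17 for TT against HT (edgeR adjusted p = 1.00 for each). Camk2b, a calcium-dependent kinase subunit, stood at -0.17 ± 0.11 with history (edgeR adjusted p = 0.823).

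**Figure D5:**
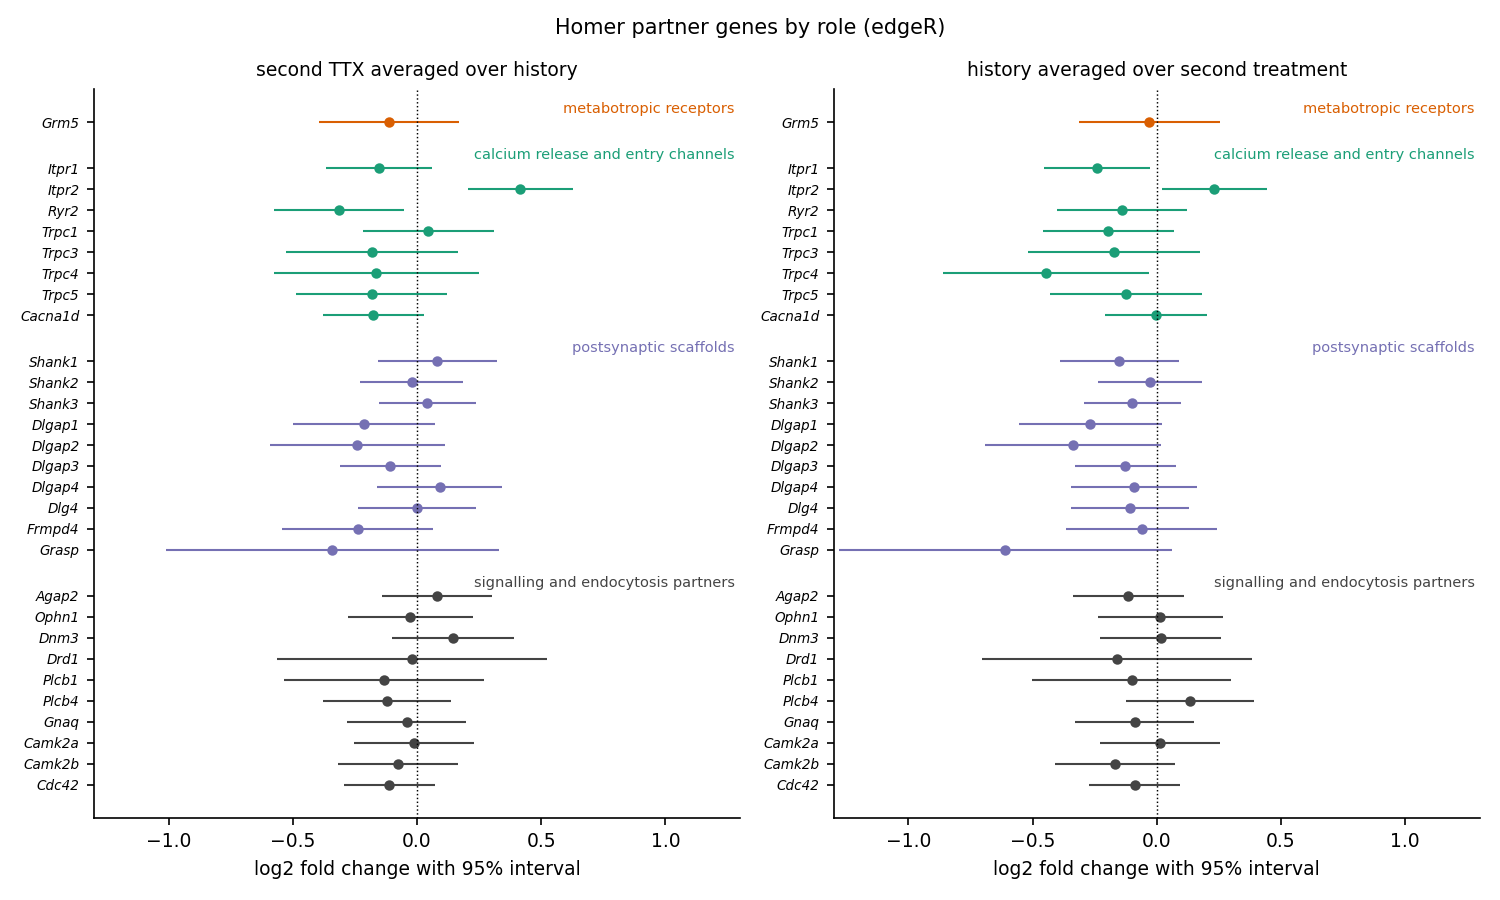
Log2 fold change with 95% interval (x axis) of tested Homer partner genes (y axis, coloured by role) for the second TTX averaged over history (left) and history averaged over the second treatment (right). Itpr2 stands farthest above 0 on the left (0.42), and all 10 scaffolds lie below 0 on the right; no gene shown passed the adjusted threshold.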

How the data were processed

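The members and gene lists were chosen with earlier results of these data known. The authors deposited whole-number read counts per gene symbol, with 1 column per library. Tools named in the submitters' processing notes are FastQC, Bowtie2, TopHat2 and featureCounts, and the build is rn6. The sources used here do not give the annotation, strand setting or treatment of introns, so a gene and an overlapping or antisense neighbour may share reads. Columns were matched to samples by the number in each sample's description; 2 further columns were not used.

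Counts were tested with edgeR 4.0.16 (R 4.3.3): filterByExpr, TMM scaling, 1 model of 4 group means (4 residual degrees of freedom), robust quasi-likelihood tests and Benjamini-Hochberg adjustment over 11372 genes at 0.05. Each SE was derived from the estimate and its F statistic. Log2 CPM used a prior count of 2. This step was tested on simulated data with the same spread for every gene. The simulation held no library like HH replicate 1, so it does not cover that case. Differences of log2 ratios used exact permutation. Total counts were 3489176 to 4959887 per library, and replicates of every group differed by more than counting noise (chi-square over degrees of freedom 3.86 to 10.8). Alternatives were DESeq2 1.42.0, limma 3.58.1 (voom), other scalings, filters and prior counts, a replicate block, and libraries left out.

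Promoter letters are RefSeq's (GRCr8); Homer1 and Homer3 matched, and rn6 gene positions were not used here. Values are given for the members, up to 4 partner genes per role with the smallest p in any comparison, 5 activity-regulated genes and the 8 most alike genes per member. Marker lists covered neurons (all, excitatory, inhibitory), oligodendrocyte lineage, astrocytes, microglia, endothelium and dividing cells; endothelial markers summed to 54.1 to 99.4 CPM. Values of 1 partner gene are not reported here; it is counted in its list and left out of the plot of partner genes.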

Additional observations from a re-analysis of the deposited data

Results flagged for a closer look

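Homer1 in HT replicate 1, at 407 CPM, stood apart from the other libraries given the second TTX (315 to 329 CPM), its gap to the next library making up 0.83 of the log2 range of the 4. Homer2 in HH replicate 1, at 108 CPM, stood apart in the same way from the other libraries given the second vehicle (51.6 to 58.4 CPM), with a gap of 0.832 of the range. Chance puts about 1 in 20 groups past this limit, and 24 sets of 4 libraries, which overlap, were examined. HT replicate 1 was also the second highest library for Homer2, at 66.7 CPM, and the highest for Homer3, at 10.3 CPM.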

How the results depend on the processing

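Of 348 values of the 21 member results under the alternatives, 325 kept their direction and their side of the threshold, 20 changed direction and 3 passed only under an alternative (Homer1 without HH replicate 2). For Homer3, HT against HH, TH against HH and both averages stayed above 0 under every alternative run, with 0 calls; HT against HH ran from 0.43 to 1.49. Leaving out 1 library at a time gave these log2 ranges. For Homer1 they were -1.11 to 0.30 (HT against HH), -1.33 to 0.081 (TH against HH), -0.12 to 0.22 (TT against TH), -0.27 to 1.15 (interaction), -0.54 to 0.17 (second TTX averaged) and -0.76 to -0.054 (history averaged). For Homer2 they were -1.12 to -0.15 (HT against HH), -0.99 to -0.10 (TH against HH), -0.64 to -0.15 (second TTX averaged), -0.45 to 0.35 (TT against HT), -0.36 to 0.014 (TT against TH) and -0.014 to 0.96 (interaction), and for Homer3 -0.34 to 0.53 (TT against HT) and -0.12 to 0.33 (TT against TH). Ratio differences ran from -0.23 to 0.019 (Homer1 to Homer2, history), -1.25 to -0.40 (Homer1 to Homer3, history) and -1.25 to -0.48 (Homer2 to Homer3, second TTX). With HH replicate 1 and HT replicate 1 both left out, Homer1 stood at 0.12 (HT against HH), 0.081 (TH against HH), -0.091 (interaction), 0.079 (second TTX averaged) and 0.035 (history averaged), and Homer2 at 0.35 (TT against HT) and 0.13 (history averaged). For these changes of direction the cause was not tested beyond the libraries left out.

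Over all genes, the second TTX averaged over history had 0 calls in edgeR, 11 in DESeq2 and 16 with no filter on low counts. With 1 library left out, calls ran from 0 to 32 (HT against HH), 0 to 1 (TT against TH), 0 to 121 (TH against HH), 0 to 2 (interaction), 0 to 7 (second TTX averaged) and 0 to 100 (history averaged). Scaling by total counts moved the median of all genes by at most 0.094. Depth limits Homer3 most, at 10 to 45 reads a library.

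Same-numbered replicates deviated together in HH and HT (correlation 0.447) but not in the other pairs (-0.066 to 0.087), so the numbers are not shown to pair samples. A fit with the replicate number as a block called 0 of the 21 member results (edgeR adjusted p = 0.650 to 1.00), with Homer1 at -0.51 for HT against HH, and 0 genes in each comparison.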
